A study of Mus musculus with 13 samples.

Results

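Ter119- CD71+ cells are the least mature of 3 erythroid populations profiled here, and the effect of ADAR1 loss in them was read from 6 of the 13 arrays of the series. The 6 arrays were chosen by their labels alone: 3 came from knockout embryos 1, 10 and 11, and 3 from control embryos 2, 13 and 15. All 19938 genes with a probe set of their own were compared. The cells were sorted by flow cytometry from fetal liver of E14.5 embryos, with each sample from 1 mouse on a background labelled C57JB6. Every embryo carried Cre recombinase on 1 copy of the EpoR locus (EpoR-Cre ki/+), so recombination follows the expression of the erythropoietin receptor. Knockout embryos had Adar alleles labelled fl/- and controls fl/+, so that the controls also kept only 1 allele that Cre cannot recombine. The R26 EYFP reporter was ki/+ in the 3 controls and in knockout embryo 1, and +/+ in knockout embryos 10 and 11. For comparison, Ter119+ CD71+ cells came from knockout embryos 10 and 11 and the same 3 controls.

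ADAR1, the product of Adar, is an RNA editing enzyme that changes adenosine to inosine within double-stranded RNA. Edited RNA is less readily taken for viral RNA by the cytosolic sensor MDA5, encoded by Ifih1, and signalling from that sensor ends in the transcription of interferon-stimulated genes. Ter119- CD71+ cells include dividing erythroid progenitors and early erythroblasts, which carry the transferrin receptor CD71 and have not yet gained the Ter119 antigen of maturing red cells.

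The erythroid label was checked against its markers. Tfrc, which encodes CD71, had log2 levels of 11.77, 11.76 and 11.84 in knockout embryos 1, 10 and 11 and of 12.05, 11.87 and 11.89 in control embryos 2, 13 and 15. The progenitor receptor gene Kit was at 8.70 ± 0.07 (SD, n = 3) in control Ter119- CD71+ cells against 5.66 ± 0.12 (n = 3) in control Ter119+ CD71+ cells, and Alas2, the erythroid enzyme that starts heme synthesis, was at 10.09 ± 0.09 against 12.18 ± 0.15. In the knockout Ter119- CD71+ arrays Alas2 read 9.96, 9.34 and 9.61, all below the 3 controls (difference -0.45, SE 0.14, adjusted p = 0.132). The mean of 12 erythroid identity markers was also lower in the knockout, at 10.30, 10.12 and 10.19 in embryos 1, 10 and 11 against 10.35, 10.57 and 10.54 in the controls, without overlap. Their median difference was -0.36, and 7 of the 12 had all knockout arrays below all controls, a pattern of 11.6% of all genes. Of the 12, the membrane protein gene Epb42 was called lower and Tspo2, an erythroid translocator protein gene, higher, beside 0.858% and 1.35% of all genes. Omitting knockout embryo 10, control embryo 13 or control embryo 15 ended both calls. Array medians over all genes ran from 5.83 to 5.93. Adar itself read 7.39, 7.64 and 7.53 in the knockout arrays and 7.20, 7.81 and 7.79 in the controls. These arrays overlapped, and the sign of the difference of -0.08 (SE 0.23, adjusted p = 0.951) turned to 0.02 without control embryo 13 and to 0.01 without control embryo 15. Where the Adar probes lie relative to the floxed exons was not analysed here, so this probe set does not check the genotype.

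Of the 19938 genes, 441 were called at an adjusted p under 0.05, which is 2.21% of those tested. Those higher in the knockout numbered 270 (1.35%) and those lower 171 (0.858%). The increases were the larger changes: 122 called genes were at least 1 log2 unit higher and 28 at least 2 units higher, against 26 at least 1 unit lower and 0 at least 2 units lower. The median called increase was 0.92 and the median called decrease -0.74, beside a median of 0.00 over all genes. In every called gene the 3 knockout arrays lay entirely on 1 side of the 3 control arrays, which was so for 21.5% of all genes, with 9.92% above and 11.6% below.

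**Figure D1:**
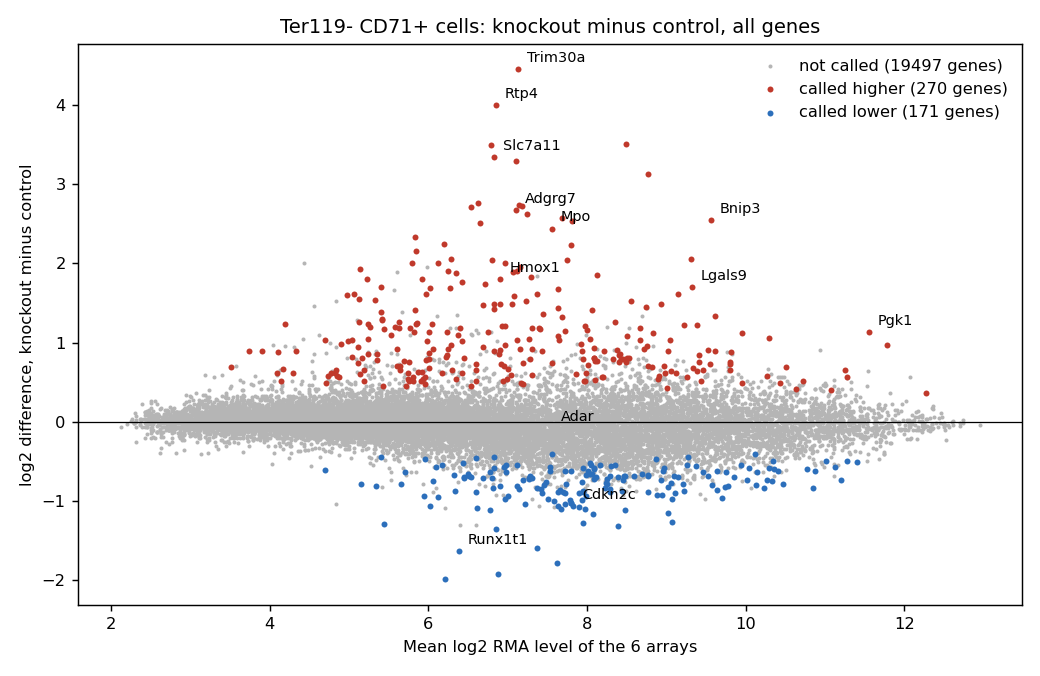
Each point is 1 of 19938 genes, with its mean log2 level over the 6 Ter119- CD71+ arrays on the horizontal axis and its log2 difference, knockout minus control, on the vertical axis. Red points are the 270 genes called higher and blue points the 171 called lower; the increases reach 4.45 log2 units in Trim30a and the decreases -1.99 in Serpina6.

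Knockout embryo 10 had the widest departures from the controls. It held the highest value in 206 of the 270 genes called higher and the lowest in 138 of the 171 called lower. The median over the genes called higher was 1.11 above the control mean in embryo 10, 0.87 in embryo 1 and 0.75 in embryo 11. The count of calls depended on which array was left out: it was 136 without knockout embryo 10, 148 without control embryo 13, 135 without control embryo 15, 241 without knockout embryo 1 and 1006 without control embryo 2. Under all 6 omissions 105 genes were called, 92 of them higher and 13 lower.

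With the R26 EYFP allele as a covariate, which rests the knockout effect on embryo 1, 33 genes were called. Knockout embryo 1 also differed from knockout embryos 10 and 11 in sex-linked genes. The mean of 4 such genes was 7.76 in embryo 1 and 5.80 and 5.72 in embryos 10 and 11. In control embryos 2, 13 and 15 it was 5.69, 5.48 and 7.44. Among the knockout embryos the EYFP allele cannot be told apart from this difference. With the mean of 20 neutrophil and myeloid marker genes as a covariate 23 were called. That mean was 5.61 to 6.78 in the 3 knockout arrays and 4.99 to 5.29 in the 3 controls, and 4 of the 20 genes were themselves called higher. This covariate thus overlaps with genotype, and the fit can remove part of a knockout effect. Both fits and all 6 omissions called the same 22 genes, every one of them higher in the knockout. They were the interferon-stimulated genes Trim30a, Rtp4, Ifi27, Sp100, Lgals3bp, Samd9l, Xaf1 and Oas1a, the amino acid and stress response genes Slc7a11, Slc7a3, Cth, Nupr1 and Hmox1, the glycolytic and hypoxia-linked genes Bnip3, Pfkp, Ak4, P4ha1 and Pgm1, and Adgrg7, Mpped2, Prkcq and Apobec1. These 22 are called stable genes here. Every SE given beside a fold is on the log2 scale.

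**Figure D2:**
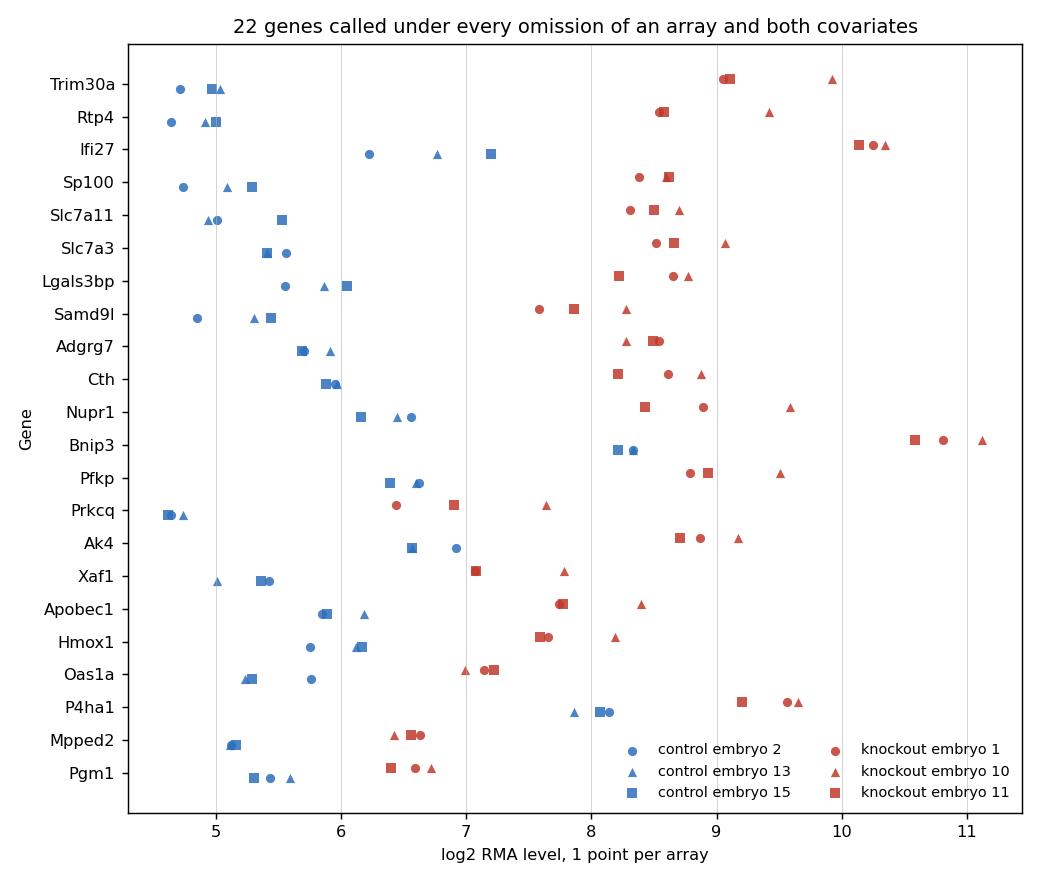
Log2 RMA levels of the 22 stable genes, 1 point per Ter119- CD71+ array, with knockout embryos in red and control embryos in blue. In each gene the 3 red points lie to the right of the 3 blue points, from 4.45 log2 units apart on average in Trim30a to 1.13 in Pgm1.

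Interferon-stimulated genes led the increases. Among 208 measured genes of 15 interferon lists, 35 rose and 1 fell, beside 1.35% and 0.858% of all genes. The list members had a median difference of 0.16. Trim30a, an interferon-induced tripartite motif gene, read 9.05, 9.92 and 9.11 in knockout embryos 1, 10 and 11 and 4.71, 5.03 and 4.97 in control embryos 2, 13 and 15. Its groups were far apart, with a 21.9-fold increase (log2 difference 4.45, SE 0.24, adjusted p = 2.78e-07). Rtp4, whose product restrains viral RNA replication, read 8.54, 9.42 and 8.58 against 4.64, 4.91 and 5.0. The gap was again wider than the spread in either group, and the increase was 16.0-fold (4.0, SE 0.20, adjusted p = 1.9e-07).

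The other stable interferon genes followed the same order of knockout above control in every array. Sp100, a component of nuclear bodies, read 8.38, 8.60 and 8.62 against 4.74, 5.09 and 5.29, an 11.2-fold increase (SE 0.15, adjusted p = 5.93e-08). Ifi27, which encodes a small mitochondrial membrane protein, was the gene of this set with the widest control spread, at 10.25, 10.35 and 10.14 against 6.22, 6.77 and 7.20. Samd9l, an antiviral and growth-restraining gene, read 7.58, 8.28 and 7.86 against 4.85, 5.30 and 5.44 and rose 6.54-fold (SE 0.25 on the log2 scale, adjusted p = 5.99e-05). Xaf1, which encodes a pro-apoptotic binder of an inhibitor of apoptosis, read 7.07, 7.78 and 7.08 against 5.42, 5.01 and 5.36 and rose 4.14-fold.

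Promoters of the genes called higher were searched for the core of the interferon-stimulated response element, the site of the transcription factor complex ISGF3. The windows run from 250 bases before to 50 bases after a gene's start in RefSeq on GRCm38.p6, and 15563 of the 19938 genes had one. The 3 windows printed were chosen because they hold the core, and they belong to Trim30a, to Ifitm3, a membrane protein gene that blocks viral entry, and to Gbp7, an interferon-inducible GTPase gene. Capitals mark GAAANNGAAA or its reverse complement TTTCNNTTTC, the letters searched on both strands, where N is any base.
Trim30a (chr7:104465144-104465443, - strand): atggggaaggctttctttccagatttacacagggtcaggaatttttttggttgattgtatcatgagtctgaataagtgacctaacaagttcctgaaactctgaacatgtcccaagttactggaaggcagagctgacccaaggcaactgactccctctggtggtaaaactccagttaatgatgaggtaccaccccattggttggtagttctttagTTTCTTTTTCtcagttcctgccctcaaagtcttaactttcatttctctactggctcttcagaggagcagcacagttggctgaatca
Ifitm3 (chr7:141010695-141010994, - strand): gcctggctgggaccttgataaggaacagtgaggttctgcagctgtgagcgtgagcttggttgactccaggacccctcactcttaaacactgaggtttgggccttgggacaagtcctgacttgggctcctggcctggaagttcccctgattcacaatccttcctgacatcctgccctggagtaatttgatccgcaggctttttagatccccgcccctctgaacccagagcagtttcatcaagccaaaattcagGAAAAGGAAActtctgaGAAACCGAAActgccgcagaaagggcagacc
Gbp7 (chr3:142530086-142530385, + strand): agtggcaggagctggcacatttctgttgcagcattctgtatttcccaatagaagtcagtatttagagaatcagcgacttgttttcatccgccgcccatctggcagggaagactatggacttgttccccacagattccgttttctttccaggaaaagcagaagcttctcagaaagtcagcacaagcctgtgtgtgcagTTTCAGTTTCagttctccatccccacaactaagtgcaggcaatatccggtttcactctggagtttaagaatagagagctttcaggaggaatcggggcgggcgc
In Trim30a, which has 2 windows, the match in this one begins at base -36 from the start, and in Gbp7 at base -53. Ifitm3 has 2 matches, at +3 and +20. Of the 35 interferon list genes called higher 29 had a window, and 19 of these (65.5%) held the core. It was in 41 of 139 (29.5%) interferon list genes with a window that were not called and in 605 (3.89%) of all genes with a window. A gene was counted once if any of its windows held the core. Of the 140 genes called lower that had a window, 4 (2.86%) held it.

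Among the antiviral effectors, 11 of 36 measured genes rose and 1 fell, beside 1.35% and 0.858% of all genes. The list median was 0.26. Lgals9, which encodes galectin-9, read 10.04, 10.42 and 10.05 in knockout embryos 1, 10 and 11 against 8.21, 8.40 and 8.80 in the controls and rose 3.25-fold (SE 0.22, adjusted p = 0.00113). The 1 decrease was in Zc3hav1, the gene of the antiviral zinc finger protein ZAP, at -0.56 (SE 0.12, adjusted p = 0.0241), and the omission of knockout embryo 1 or 10 or of control embryo 13 or 15 ended that call. Several textbook interferon-stimulated genes were not called. Ifit1 read 5.84, 5.83 and 5.26 against 5.0, 5.10 and 4.80, without overlap, at a difference of 0.67 (SE 0.30, adjusted p = 0.311). The same gene differed by 2.98 in Ter119+ CD71+ cells (adjusted p = 0.000285), but the difference between the populations did not pass (adjusted p = 0.172). Mx1 differed by 0.02 (SE 0.10) and lay near the bottom of the scale in both groups, at 3.31 and 3.28.

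The 2'-5'-oligoadenylate synthetases make the activator of RNase L when they meet double-stranded RNA. Their list gave 5 increases among 11 measured genes, beside 1.35% of all genes, and a median of 0.35. All 5 calls held under each omission of an array. Oas1a read 7.14, 6.99 and 7.22 in the knockout against 5.76, 5.23 and 5.29 in the controls, a 3.23-fold increase (SE 0.17, adjusted p = 0.000103). Oasl2 rose 4.03-fold (SE 0.29), Oas1b 2.40-fold (SE 0.22), Oas3 1.89-fold (SE 0.14) and Oas2 1.83-fold (SE 0.14). Ifitm3 read 9.91, 10.71 and 10.37 against 6.78, 7.11 and 7.73 and rose 8.73-fold (SE 0.46, adjusted p = 0.00325). Gbp7 read 7.95, 8.17 and 8.29 against 5.59, 6.34 and 6.62. It rose 3.87-fold (SE 0.25, adjusted p = 0.00122), and its neighbour Gbp3 rose 1.53-fold, which the omission of knockout embryo 10 or 11 or of control embryo 13 or 15 ended (adjusted p up to 0.18).

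Genes of the sensors of double-stranded RNA were among the increases. Ifih1 read 9.51, 9.82 and 9.72 in knockout arrays and 7.99, 8.02 and 8.56 in controls, a 2.81-fold increase (SE 0.30, adjusted p = 0.0189). Ddx58, which encodes RIG-I, read 7.24, 8.06 and 7.34 against 5.74, 6.06 and 6.54 and rose 2.70-fold (SE 0.26, adjusted p = 0.0119). Dhx58, the gene of their regulator LGP2, rose 2.31-fold (SE 0.20, adjusted p = 0.00822). The calls of Ifih1 and Ddx58 were lost without knockout embryo 10 or control embryo 13, where the adjusted p reached 0.102 and 0.0599. Eif2ak2, which encodes the kinase PKR, read 9.47, 9.40 and 9.78 against 8.88, 8.98 and 9.68, so that its groups overlapped (difference 0.37, SE 0.29, adjusted p = 0.69). The whole sensing list had 3 increases among 23 genes, beside 1.35% of all genes, and a median of -0.05.

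The interferon genes themselves showed no call. limma called 0 of 16 measured interferon genes, and 1 of them had an unadjusted p under 0.05. Their differences ran from -0.18 to 0.48 with a median of -0.01. Of 25 genes of interferon receptors and the JAK, STAT and IRF proteins behind them, 1 rose, beside 1.35% of all genes. This was Ifnar2, a subunit of the type I interferon receptor, at 10.53, 10.70 and 10.46 against 9.95, 9.97 and 10.02 (1.49-fold, SE 0.10, adjusted p = 0.0102, lost without knockout embryo 10 at 0.0703). The partner subunit gene Ifnar1 read 7.11, 7.20 and 7.35 against 7.16, 7.55 and 7.32, with overlapping groups. Irf7, a factor that amplifies interferon production, was 0.64 higher (SE 0.24, adjusted p = 0.217).

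Members of several smaller interferon families moved in part. The tripartite motif list gave 4 increases among 10 genes, beside 1.35% of all genes, and a median of 0.66. The 4 were Trim30a, Trim30d, Trim12a and Trim34a. The Trim12a call was lost without knockout embryo 1 or 10 or control embryo 13 (adjusted p up to 0.126). The list of PARP genes linked to interferon had the highest median of the interferon lists, 0.94. All 7 genes matched in it had the 3 knockout arrays above the 3 controls, a pattern found in 9.92% of all genes. The list also names Parp13, a synonym of Zc3hav1, which was not matched there. Zc3hav1 was called lower by limma, at -0.56 (adjusted p = 0.0241), and is counted among the antiviral effectors. Only Parp14 of the 7 passed the test, at 7.55, 7.84 and 7.96 against 6.64, 6.62 and 6.98 (2.05-fold, SE 0.21, adjusted p = 0.0228). Omitting knockout embryo 10 or 11, or control embryo 13 or 15, ended that call (adjusted p up to 0.112). Of the PYHIN family, DNA-binding proteins encoded on chromosome 1, the neighbours Ifi203 and Ifi207 rose 2.93-fold (SE 0.22) and 2.45-fold (SE 0.20). In Ter119+ CD71+ cells they differed by 0.25 and 0.13, and the differences between the populations did not pass (adjusted p = 0.355 and 0.378). Over the 15 interferon lists the number of increases was 22 without knockout embryo 10, 22 without control embryo 13, and between 28 and 35 under the other 4 omissions. It was 8 with either covariate.

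**Figure D3:**
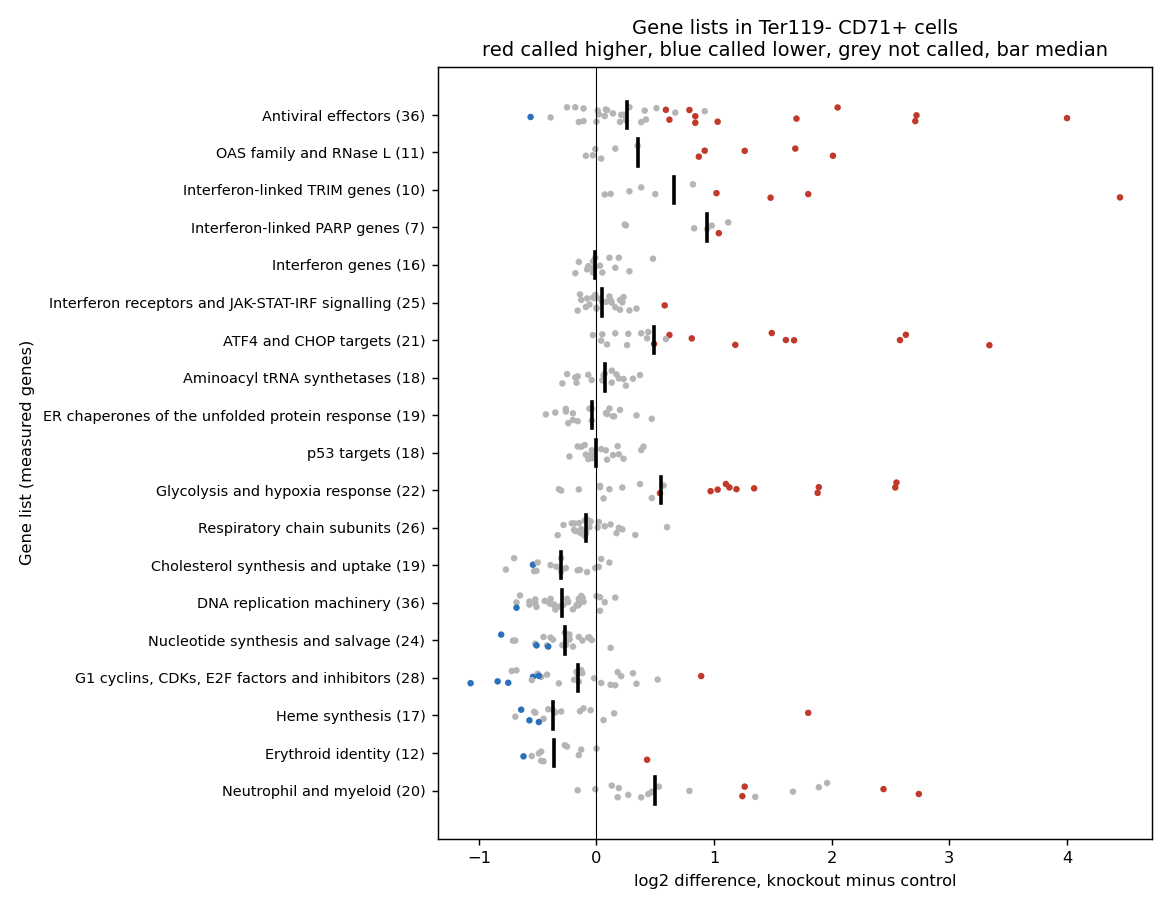
Log2 differences, knockout minus control, of the measured genes of 19 gene lists in Ter119- CD71+ cells, with the number of genes in brackets. Red and blue points are genes called higher and lower, grey points were not called and black bars are list medians. The medians run from -0.37 in the heme synthesis list, which also holds heme breakdown genes, to 0.94 in the PARP list.

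Targets of the stress-induced factors ATF4 and CHOP formed a further group of increases. In this list 10 of 21 measured genes rose and 0 fell, against 1.35% and 0.858% of all genes, and its median was 0.49. The mean level of the list was 7.59, 7.79 and 7.35 in knockout embryos 1, 10 and 11 and 6.68, 6.68 and 6.63 in the controls, without overlap. Slc7a11, the light chain of the cystine and glutamate exchanger, read 8.31, 8.70 and 8.50 against 5.01, 4.94 and 5.53. It rose 10.1-fold (log2 difference 3.34, SE 0.20, adjusted p = 4.92e-07). Cth, whose enzyme makes cysteine from cystathionine, read 8.61, 8.88 and 8.21 against 5.95, 5.97 and 5.88 and rose 6.21-fold (SE 0.19, adjusted p = 4.42e-06). Nupr1, a stress-induced chromatin protein gene, read 8.89, 9.59 and 8.43 against 6.56, 6.45 and 6.16 and rose 5.96-fold (SE 0.23, adjusted p = 3.99e-05).

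Chac1, a glutathione-degrading enzyme gene, read 8.79, 8.60 and 8.04 against 6.93, 6.54 and 6.93 (3.20-fold, SE 0.20, adjusted p = 0.00065). Trib3, a pseudokinase induced by CHOP, read 7.89, 7.81 and 7.02 against 6.17, 6.02 and 6.04 (2.82-fold, SE 0.19, adjusted p = 0.00113), and Ddit3, which encodes CHOP, read 9.37, 9.68 and 8.74 against 8.31, 8.06 and 7.87 (2.27-fold, SE 0.19, adjusted p = 0.00515). All 3 had their lowest knockout value in embryo 11 and no overlap with the controls. The transcript of Atf4, a factor controlled largely through translation, was at 9.80, 9.79 and 9.79 against 9.56, 9.85 and 9.69, and Asns, the asparagine synthetase gene and a textbook ATF4 target, was at 12.37, 12.35 and 12.32 against 12.31, 12.28 and 12.29. Neither was called, at differences of 0.09 (SE 0.12) and 0.05 (SE 0.09).

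The composite element to which ATF4 binds with a C/EBP partner was searched as TTGCATCA and its reverse complement TGATGCAA. The 3 windows printed were again chosen because they hold it, in capitals.
Slc7a11 (chr3:50443564-50443863, - strand): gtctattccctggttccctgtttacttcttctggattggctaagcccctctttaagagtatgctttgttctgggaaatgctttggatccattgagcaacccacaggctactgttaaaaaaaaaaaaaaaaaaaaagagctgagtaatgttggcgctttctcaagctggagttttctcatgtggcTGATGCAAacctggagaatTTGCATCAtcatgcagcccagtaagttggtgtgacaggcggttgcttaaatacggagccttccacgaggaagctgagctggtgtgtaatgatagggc
Chac1 (chr2:119350992-119351291, + strand): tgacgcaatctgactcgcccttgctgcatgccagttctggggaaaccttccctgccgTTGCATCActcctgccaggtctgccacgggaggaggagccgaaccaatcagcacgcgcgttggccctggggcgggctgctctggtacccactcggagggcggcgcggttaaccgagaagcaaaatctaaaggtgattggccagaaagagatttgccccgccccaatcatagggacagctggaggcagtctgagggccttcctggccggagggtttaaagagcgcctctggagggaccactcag
Nupr1 (chr7:126625421-126625720, - strand): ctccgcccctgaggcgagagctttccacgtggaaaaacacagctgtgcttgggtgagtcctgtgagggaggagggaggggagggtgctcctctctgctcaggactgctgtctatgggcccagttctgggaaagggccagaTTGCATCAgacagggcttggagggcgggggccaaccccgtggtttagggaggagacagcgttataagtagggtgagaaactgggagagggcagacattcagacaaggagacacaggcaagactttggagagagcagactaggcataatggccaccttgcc
Slc7a11 has 2 matches in opposite orientation, at -66 and -47, and Chac1 and Nupr1 have 1 each, at -193 and -110. Of the ATF4 and CHOP targets called higher, 3 of 9 with a window held the element, and of those not called 4 of 10 did. It was in 128 (0.822%) of all genes with a window and in 7 of the 213 (3.29%) called higher.

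Genes of amino acid supply moved in both directions. Among 20 measured amino acid transporter genes 4 rose and 2 fell, beside 1.35% and 0.858% of all genes. Slc7a3, a cationic amino acid transporter, read 8.52, 9.07 and 8.66 against 5.56, 5.41 and 5.41 and rose 9.76-fold (SE 0.18, adjusted p = 3.1e-07). Slc7a7 rose 2.26-fold (SE 0.13, adjusted p = 0.000298) and Slc1a4, a neutral amino acid transporter, 1.67-fold (SE 0.13, adjusted p = 0.00925), the latter lost without knockout embryo 10 or control embryo 15. The glutamine transporter gene Slc38a5 fell, at 9.28, 8.90 and 9.49 against 9.97, 10.33 and 10.25 (difference -0.96, SE 0.15, adjusted p = 0.00552). Slc43a1, a large neutral amino acid transporter gene, differed by -0.84 (SE 0.15, adjusted p = 0.0124) and lost its call without knockout embryo 10 or control embryo 13 or 15. Of 17 genes of serine, asparagine, proline and one-carbon synthesis, 2 rose, Cth and Gpt2, beside 1.35% of all genes. The Gpt2 call held only when knockout embryo 11 was the one omitted.

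The other arms of the stress lists gave few calls. limma called 0 of 18 aminoacyl tRNA synthetase genes (3 at an unadjusted p under 0.05) and 0 of 19 endoplasmic reticulum chaperones of the unfolded protein response (4 at that p), with medians of 0.07 and -0.04. Hmox1, whose enzyme opens the heme ring and which the factor NRF2 induces, rose 3.47-fold, from 5.75, 6.12 and 6.17 in the controls to 7.65, 8.19 and 7.59 (SE 0.18, adjusted p = 0.000103). It and Slc7a11 were the only 2 of 18 NRF2 list genes called, beside 2.21% of all genes, and that list's median was -0.07. Among 9 heat shock genes 2 fell, Hsph1 and Dnajb1, beside 0.858% of all genes. The omission of knockout embryo 1 or 10 or of control embryo 13 or 15 ended both calls (adjusted p up to 0.117 and 0.157). Of the 127 measured genes of the stress lists 14 rose and 5 fell, beside 1.35% and 0.858% of all genes. The decreases numbered 1 to 7 under the 6 omissions. Over all stress lists the 14 increases became 10 to 14 under the 6 omissions, 8 with the EYFP covariate and 5 with the myeloid covariate.

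Glycolysis and the hypoxia response gave 11 increases and 0 decreases among 22 measured genes, beside 1.35% and 0.858% of all genes. The list median was 0.55. The list mean was 9.0, 9.30 and 8.90 in knockout embryos 1, 10 and 11 against 8.20, 8.40 and 8.25 in the controls. Bnip3, a mitochondrial protein that marks mitochondria for autophagy and a textbook hypoxia target, read 10.81, 11.12 and 10.59 against 8.33, 8.33 and 8.21. It rose 5.86-fold (log2 difference 2.55, SE 0.18, adjusted p = 3.26e-06). Pfkp, the platelet-type phosphofructokinase gene, read 8.79, 9.51 and 8.93 against 6.62, 6.60 and 6.39 and rose 5.81-fold (SE 0.19, adjusted p = 5.44e-06). The other 2 phosphofructokinase genes did not share this: Pfkm differed by -0.32 (adjusted p = 0.416) and Pfkl by -0.15 (adjusted p = 0.813).

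Unequal behaviour of isoenzyme genes recurred along the pathway. Hk2 read 7.96, 8.51 and 7.56 against 6.20, 6.25 and 5.91 and rose 3.71-fold (SE 0.24, adjusted p = 0.001), while Hk1, the gene of the other hexokinase measured, differed by 0.03 (SE 0.12). Pgk1, the phosphoglycerate kinase gene, read 12.05, 12.27 and 12.03 against 11.05, 10.92 and 10.99 and rose 2.19-fold (SE 0.12, adjusted p = 0.000139). Pkm, the pyruvate kinase gene, rose 2.54-fold (SE 0.20, adjusted p = 0.00408) and Aldoa, an aldolase gene, 1.96-fold (SE 0.13, adjusted p = 0.00137). Ldha, the lactate dehydrogenase gene, read 12.50, 12.53 and 12.54 against 12.20, 12.55 and 12.48, with overlapping groups and a difference of 0.11 (SE 0.12, adjusted p = 0.804).

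Of the non-glycolytic members, Egln3, an oxygen-sensing prolyl hydroxylase gene, was 1.88 higher (SE 0.31, adjusted p = 0.00629) and Vegfa, the angiogenic growth factor gene, 1.03 higher (SE 0.18, adjusted p = 0.00974, lost without knockout embryo 10 at 0.0562). Car9, a textbook hypoxia target, was at 5.14 and 5.08 and not called (0.06, SE 0.10). Called genes with a known link to hypoxia also lay outside the list and were picked after their values were seen. Ak4, a mitochondrial adenylate kinase gene, read 8.87, 9.17 and 8.71 against 6.92, 6.57 and 6.57 (4.68-fold, SE 0.15, adjusted p = 1.76e-06). P4ha1, a collagen prolyl hydroxylase gene, rose 2.73-fold (SE 0.13, adjusted p = 4.62e-05) and Ndufa4l2, a hypoxia-induced mitochondrial gene, 3.73-fold (SE 0.20, adjusted p = 0.000185). Ero1a, an endoplasmic reticulum oxidase gene, and the histone demethylase gene Kdm3a rose 2.08-fold and 2.05-fold, the second not without knockout embryo 10 or control embryo 13 (adjusted p up to 0.0586). The core of the hypoxia response element, TACGTG or CACGTA, was searched in the same windows. Among genes with a window, 2 of 11 called list genes, 3 of 10 not called and 3.80% of all genes held it. The number of list calls was 8 to 11 under the omissions, 3 with the EYFP covariate and 2, Bnip3 and Pfkp, with the myeloid covariate. The 26 respiratory chain genes had a median of -0.09 and limma called 0, with 1 at an unadjusted p under 0.05.

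Of the 22 stable genes 18 were also called in the more mature Ter119+ CD71+ cells, where 510 genes (2.56%) were called from 2 knockout and 3 control arrays of embryos that also gave the cells compared here. Trim30a differed there by 5.04, Sp100 by 4.77, Slc7a11 by 3.89 and Bnip3 by 2.56. The difference between the knockout effects was tested for every gene and passed in 2 (0.0100%), both with the larger effect in Ter119- CD71+ cells.

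Adgrg7, an adhesion G protein-coupled receptor gene also known as Gpr128, read 8.54, 8.28 and 8.49 in the knockout Ter119- CD71+ arrays and 5.70, 5.91 and 5.69 in the controls. It rose 6.37-fold (log2 difference 2.67, SE 0.14, adjusted p = 1.9e-07). In Ter119+ CD71+ cells it read 5.91 and 5.46 in knockout embryos 10 and 11 against 5.09, 4.92 and 5.18 in control embryos 2, 13 and 15, a difference of 0.62 (SE 0.15, adjusted p = 0.0507). The effect was 2.05 log2 units smaller there (interaction -2.05, SE 0.21, adjusted p = 0.00278), and this difference was called under every alternative that tested it.

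Mpped2, a metallophosphoesterase gene, read 6.63, 6.42 and 6.56 in knockout Ter119- CD71+ arrays against 5.12, 5.11 and 5.16, and rose 2.65-fold (SE 0.11, adjusted p = 7.74e-06). In Ter119+ CD71+ cells the difference was 0.21 (SE 0.12, adjusted p = 0.553), which left an interaction of -1.20 (SE 0.16, adjusted p = 0.0393). The interaction of Mpped2 was not called without knockout embryo 1 or 11 or any 1 of the 3 controls. Prkcq, the gene of protein kinase C theta, read 6.44, 7.64 and 6.90 against 4.64, 4.74 and 4.62 (5.02-fold, SE 0.21, adjusted p = 4.62e-05) and differed by 0.46 in the other population, where the interaction of -1.87 (SE 0.32) had an adjusted p of 0.171. Apobec1, which encodes a cytidine deaminase that edits RNA, read 7.74, 8.40 and 7.77 against 5.85, 6.18 and 5.89 and rose 4.0-fold (SE 0.18, adjusted p = 3.78e-05). It was the only increase among 17 measured genes of deaminases and editing cofactors, beside 1.35% of all genes. The list also had 1 decrease, Aimp2 (-0.54, adjusted p = 0.0408), beside 0.858% of all genes. Omitting any array other than that of control embryo 2 ended the Aimp2 call.

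**Figure D4:**
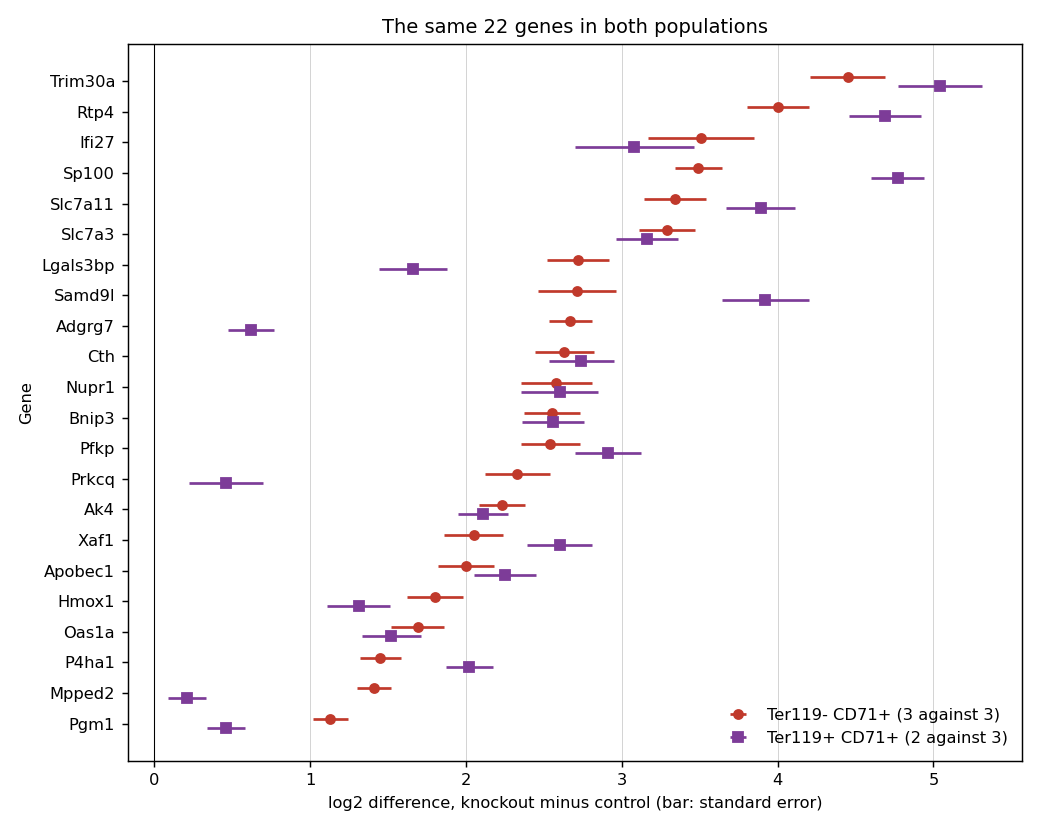
Log2 differences, knockout minus control, of the 22 stable genes in Ter119- CD71+ cells (red circles, 3 arrays against 3) and in Ter119+ CD71+ cells (purple squares, 2 against 3), with standard errors as bars. Adgrg7 (2.67 and 0.62) and Mpped2 (1.41 and 0.21) are the 2 genes whose difference between the populations passed the test.

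The largest decreases were smaller than the largest increases and were of mixed function. Serpina6, the gene of corticosteroid-binding globulin, read 5.0, 5.40 and 5.25 in the knockout arrays and 7.72, 6.76 and 7.15 in the controls. It was 3.98-fold lower (difference -1.99, SE 0.28, adjusted p = 0.00266), with no overlap. Tmem267, a transmembrane protein gene, read 5.45, 6.89 and 5.42 against 7.56, 8.07 and 7.88, with knockout embryo 10 nearest to the controls (-1.92, SE 0.42, adjusted p = 0.0315). The omission of knockout embryo 1 or 11 or of control embryo 13 or 15 ended its call (adjusted p up to 0.144), and it was the 1 gene called lower with the myeloid covariate (-3.20, adjusted p = 0.00798). Runx1t1, a transcriptional corepressor gene, read 5.79, 5.19 and 5.72 against 7.34, 6.96 and 7.29 and was 3.09-fold lower (SE 0.18, adjusted p = 0.000244). Hsd3b6, a steroid dehydrogenase gene, read 4.83, 4.99 and 4.57 against 6.66, 5.55 and 6.05, a 2.44-fold decrease (SE 0.22, adjusted p = 0.00922). The calls of Serpina6, Runx1t1 and Hsd3b6 held under each omission, and so did Kctd14 (-1.09, SE 0.14), Jcad (-1.02, SE 0.15) and Sgpl1, the sphingosine phosphate lyase gene (-1.08, SE 0.18). With the myeloid covariate the adjusted p was 0.27 for Serpina6, 0.0673 for Runx1t1 and 0.358 for Hsd3b6. Scd1, the stearoyl-CoA desaturase gene, was 2.39-fold lower (SE 0.23, adjusted p = 0.0139) but not without knockout embryo 1 or control embryo 13 or 15 (adjusted p up to 0.0759).

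Genes of cell division had small differences, most of them below 0. The 6 lists on replication, nucleotides, cell cycle, ribosome biogenesis and ribosomal proteins held 173 measured genes. Of these 12 fell and 1 rose, beside 0.858% and 1.35% of all genes, and the median was -0.14. In 63 of the 173 all 3 knockout arrays lay below all 3 controls and in 7 all lay above, beside 11.6% and 9.92% of all genes. Of the 6 lists the replication machinery had the largest share of this pattern, 21 of 36 genes below and 0 above, at a median of -0.29. Of these 36 only Fen1, the flap endonuclease gene, was called, at 8.04, 8.04 and 8.37 against 8.62, 9.16 and 8.69 (difference -0.68, SE 0.15, adjusted p = 0.0397).

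Among 24 nucleotide synthesis and salvage genes 3 fell, beside 0.858% of all genes. Dck, the deoxycytidine kinase gene, read 9.44, 9.14 and 9.55 against 9.94, 10.33 and 10.29 (-0.81, SE 0.16, adjusted p = 0.0167), and the ribonucleotide reductase subunit gene Rrm2 and the thymidylate synthase gene Tyms differed by -0.51 (SE 0.12) and -0.41 (SE 0.10). Of 28 genes of G1 control 5 fell and 1 rose, beside 0.858% and 1.35% of all genes. The cyclin E gene Ccne1 read 9.86, 9.49 and 10.08 against 10.33, 10.97 and 10.66 (-0.84, SE 0.18, adjusted p = 0.0266), and Cdkn2c, the gene of the CDK inhibitor p18, 7.27, 6.88 and 7.73 against 8.26, 8.18 and 8.65 (-1.07, SE 0.22, adjusted p = 0.0207). The increase was in Cdkn1b, the gene of the CDK inhibitor p27, at 8.05, 8.34 and 7.25 against 6.94, 7.01 and 7.01 (1.86-fold, SE 0.20, adjusted p = 0.0346), with knockout embryo 11 only 0.24 above the highest control. Of 30 mitosis genes 3 fell, Kif20a, Cdc25b and Cdc25c, beside 0.858% of all genes. None of these single calls held throughout. The 6 lists had 0 calls when knockout embryo 10, control embryo 13 or control embryo 15 was omitted, and 0 with either covariate. They had 2 decreases without knockout embryo 1, 9 without knockout embryo 11 and 24 without control embryo 2.

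Erythroid genes showed called decreases mostly under 1 log2 unit. A list of heme genes held 17 measured genes, among them the breakdown genes Hmox1, Hmox2, Blvra and Blvrb. Of the 17, 3 fell and 1, Hmox1, rose, beside 0.858% and 1.35% of all genes. In 11 all knockout arrays lay below all controls and in 2 all lay above, beside 11.6% and 9.92% of all genes. Uros read 9.97, 9.69 and 9.83 against 10.20, 10.59 and 10.63 (-0.64, SE 0.14, adjusted p = 0.0346), Urod differed by -0.49 (SE 0.11, adjusted p = 0.0346) and Alad by -0.57 (SE 0.14, adjusted p = 0.0458); these enzymes build and modify the porphyrin ring. Omitting any array other than that of control embryo 2 ended each of the 3 calls. The erythroid transcription factor genes Gata1 and Klf1 were at -0.47 (SE 0.17, adjusted p = 0.207) and -0.49 (SE 0.12, adjusted p = 0.0554) and did not pass. The erythropoietin receptor gene Epor read 8.24, 8.25 and 8.12 against 8.34, 9.16 and 8.78 (-0.55, SE 0.18, adjusted p = 0.156). Kit overlapped between groups at 9.19, 9.01 and 8.50 against 8.77, 8.63 and 8.71. Among 19 genes of Kit and erythropoietin receptor signalling 3 rose, beside 1.35% of all genes. They were the docking protein gene Gab2, the kinase gene Pim1 and the inhibitor gene Spry1. Only Pim1 of the 3 kept its call under each omission, at 8.71, 8.84 and 8.43 against 7.70, 7.88 and 7.71 (1.86-fold, SE 0.13, adjusted p = 0.00285).

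Embryonic globin genes were among the decreases, and the adult ones were not analysed here. The embryonic beta-like gene Hbb-bh1 read 7.32, 5.99 and 6.86 against 8.99, 8.24 and 8.32 and was 3.46-fold lower (SE 0.29, adjusted p = 0.00677). The embryonic alpha-like gene Hba-x read 7.42, 7.43 and 7.51 against 8.48, 8.36 and 8.22 and was 1.87-fold lower (SE 0.15, adjusted p = 0.00636). Both calls held under each omission of an array and were lost with either covariate. With the EYFP covariate the adjusted p was 0.377 for Hbb-bh1 and 0.174 for Hba-x. With the myeloid covariate Hbb-bh1 differed by -0.87 (adjusted p = 0.81) and Hba-x by -0.84 (adjusted p = 0.501). In Ter119+ CD71+ cells Hba-x was 0.61 higher (adjusted p = 0.0721), and the interaction of 1.51 (SE 0.22) had an adjusted p of 0.0604. Hbq1b, a theta-type globin gene, rose 1.54-fold (SE 0.13, adjusted p = 0.027), a call that the omission of knockout embryo 1 or 10 or of control embryo 13 or 15 ended (adjusted p up to 0.147). The related probe sets of a globin cluster can share signal through similar sequence. Of the 17 red cell membrane genes 3 fell and 1 rose, beside 0.858% and 1.35% of all genes. Dmtn, Epb42 and Cldn13 fell, and the increase was Adgrg7, a receptor and not a skeleton protein. Over the erythroid lists, with 146 measured genes, 15 fell and 8 rose, beside 0.858% and 1.35% of all genes. The decreases numbered 2 when knockout embryo 10, control embryo 13 or control embryo 15 was omitted, 6 without knockout embryo 11, 7 without knockout embryo 1 and 27 without control embryo 2. With either covariate they numbered 0. The increases numbered 3 without knockout embryo 10 or control embryo 13, 4 without control embryo 15, 5 without knockout embryo 1, and 2 with either covariate.

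The mean level of myeloid marker genes was above the controls in the knockout arrays, most of all in embryo 10. The mean of 20 neutrophil and myeloid markers was 5.62, 6.78 and 5.61 in knockout embryos 1, 10 and 11 and 4.99, 5.29 and 5.0 in the controls. Of the 20, 4 rose and 0 fell, beside 1.35% and 0.858% of all genes, with a median of 0.50. The increases numbered 1 without control embryo 15, 2 without control embryo 13, and 6 without knockout embryo 1 or 11. Without knockout embryo 10 they numbered 4, and the median was 0.28. Mpo, the myeloperoxidase gene, read 8.37, 10 and 7.98 against 6.15, 6.81 and 6.06 (5.44-fold, SE 0.40, adjusted p = 0.00614), and S100a9, a calcium-binding protein gene of neutrophils, 7.80, 10.36 and 7.40 against 5.40, 6.16 and 5.77 (6.70-fold, SE 0.54, adjusted p = 0.0179). The S100a9 call was lost without control embryo 13 or 15. Ly6g, a defining neutrophil marker, stayed near the bottom of the scale at 3.58 and 3.75. In Ter119+ CD71+ cells the same list had 0 calls and a median of 0.03.

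General leukocyte genes outside the lists, picked after their values were seen, were also highest in knockout embryo 10. Ptprc, which encodes the pan-leukocyte antigen CD45, read 6.45, 7.65 and 6.52 against 5.10, 5.14 and 5.30 (3.22-fold, SE 0.25, adjusted p = 0.00325), and Tyrobp, a signalling adaptor gene, 7.40, 8.59 and 7.48 against 5.85, 6.06 and 5.43 (4.12-fold, SE 0.27, adjusted p = 0.00132). With the myeloid mean as a covariate Ptprc, which is not among the 20 markers, differed by 0.83 (adjusted p = 0.453). In that fit Trim30a differed by 3.71 (adjusted p = 1.82e-05), Slc7a11 by 3.27 (adjusted p = 0.000303) and Bnip3 by 2.21 (adjusted p = 0.00145). Lists for macrophage, hepatocyte, megakaryocyte, mast cell, lymphoid, endothelial and stromal markers had 0 calls each by limma, with 0 to 4 genes at an unadjusted p under 0.05. The hepatocyte list mean was 5.45, 5.73 and 5.56 in knockout embryos 1, 10 and 11 and 5.74, 5.76 and 5.85 in the controls. Of its 18 genes 5 had all knockout arrays below all controls and 0 above, beside 11.6% and 9.92% of all genes. On bulk RNA more cells of a type and more RNA per cell cannot be told apart.

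**Figure D5:**
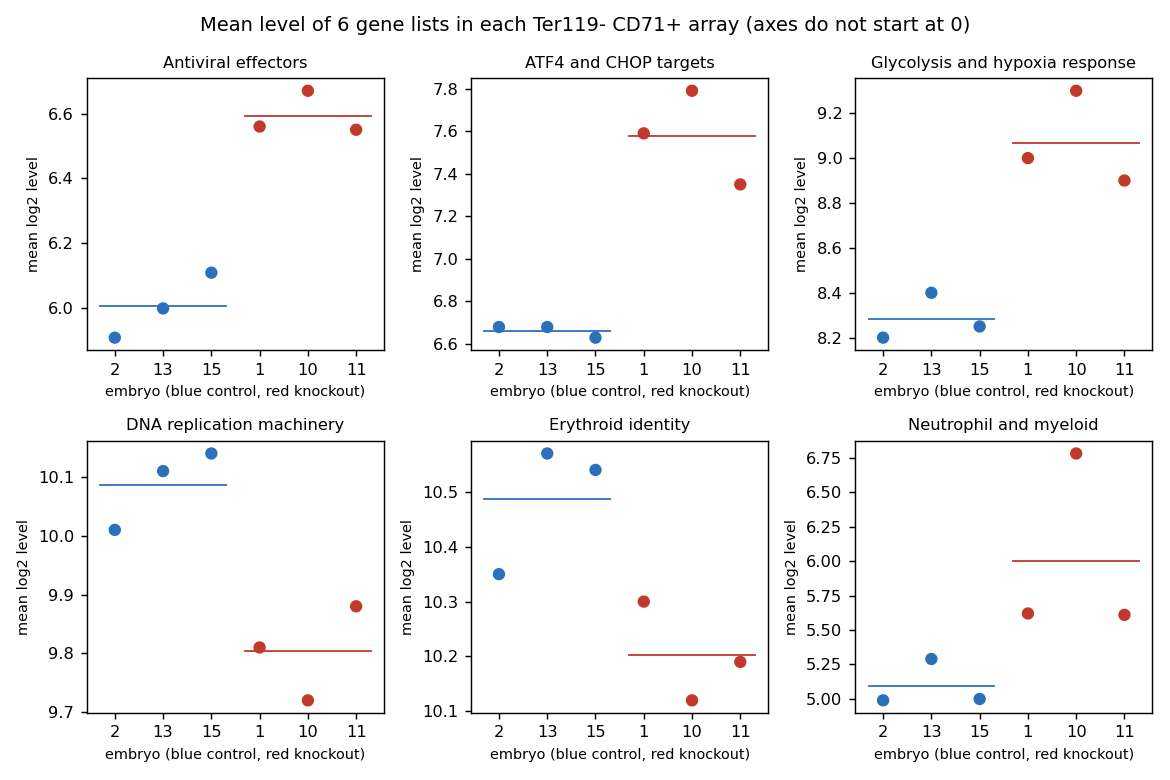
Mean log2 level of the measured genes of 6 lists in each Ter119- CD71+ array, with control embryos in blue, knockout embryos in red and group means as lines. Knockout embryo 10 is the highest in the antiviral, ATF4, glycolysis and myeloid lists (6.78 in the last) and the lowest in the replication and erythroid lists.

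Some lists that bear on cell death and growth showed little. limma called 0 of 18 p53 target genes (1 at an unadjusted p under 0.05, median 0.00), 0 of 16 genes of the BCL2 family (3 at that p) and 0 of 18 of caspases and necroptosis (5 at that p). Gadd45a, a stress-induced growth arrest gene outside those lists and picked after its value was seen, read 10.07, 10.30 and 10.20 against 9.51, 9.44 and 9.35 and rose 1.69-fold (SE 0.12, adjusted p = 0.00534). Of 33 cytosolic ribosomal protein genes limma called 0, with 0 at an unadjusted p under 0.05 and a median of 0.02. Of 24 listed genes of MHC class I presentation the 18 measured gave 0 calls (6 at that p) and a median of 0.09. Not matched, and so not tested, were H2-K1, H2-D1, H2-L, H2-T22, H2-T23 and H2-Q7. The list therefore says nothing about these class I genes. The cholesterol list had a median of -0.30, with 9 of 19 genes below all controls, beside 11.6% of all genes. Of the 19, 1 was called lower, Nsdhl (-0.54, SE 0.13, adjusted p = 0.0427), beside 0.858% of all genes. Omitting knockout embryo 1 or 10 or control embryo 13 or 15 ended that call.

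Called genes that neighbour each other and moved the same way formed 15 pairs, counting genes in RefSeq order among those tested. They included Trim30a with Trim30d, Trim34a with Trim12a, Oas2 with Oas3, Gbp7 with Gbp3, Ifi207 with Ifi203 and the metallothionein genes Mt2 with Mt1. Paralogs in such clusters can share probe signal through similar sequence. Several probe sets were present for 23 called genes, and in 2 of these, Dab2 and Tns1, they differed in sign.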

How the data were processed

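The deposited values are log2 signals on which, per the submitters' processing notes, the authors used RMA; the notes give no version and also name mm9 without its role. RMA corrects background, quantile-normalizes arrays and summarizes probes. Of 35556 probe sets, 21789 had 1 gene symbol listed and were used, while 1621 with several and 12146 with none were not. For genes with several probe sets the one with the highest mean over 13 arrays was kept, leaving 19938 genes.

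All arrays entered 1 linear model with a mean for each of 5 groups (limma 3.58.1, R 4.3.3), with variances moderated by eBayes (8 residual and 5.557 prior degrees of freedom). Tests are two-sided. Benjamini-Hochberg adjustment ran over the 19938 genes, and SE is the moderated standard error of the log2 difference. The effect in Ter119+ CD71+ cells, and its difference from that in Ter119- CD71+ cells, are contrasts of that model. P-values measure the spread between arrays, each from 1 mouse, whose small number limits precision. The procedure was tested on simulated data with known changes.

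Named genes were drawn from Adar, the largest called changes (25 a direction), up to 6 called genes of each list, the 8 smallest p of the difference between populations, and genes that define a role. The comparison and the gene lists were chosen with earlier results of these data known, and lists are described by counts and medians with no test. Alternatives were the 6 arrays alone, other scaling, a filter on dim genes, the mean over probe sets, a trended and robust prior, array weights, embryo as a block, covariates, a minimum size and the omission of each array. Embryo numbers pair populations of 1 embryo and never a knockout with a control, and the consensus correlation within embryos was 0.00385. Promoter windows came from RefSeq tables on GRCm38.p6.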

Additional observations from a re-analysis of the deposited data

Results flagged for a closer look

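Adgrg7 and Mpped2 stand out because the knockout effect differed between the 2 populations by a test of that difference. The effect on Adgrg7 was 2.67 log2 units in Ter119- CD71+ cells and 0.62 in Ter119+ CD71+ cells, a difference of -2.05 (adjusted p = 0.00278). On Mpped2 it was 1.41 and 0.21, a difference of -1.20 (adjusted p = 0.0393). In both genes the 3 knockout arrays of Ter119- CD71+ cells lay above the 3 controls.

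Probe sets with several or no listed gene were not used in the comparison. Fitted apart, 5 of these 13767 probe sets were called in Ter119- CD71+ cells, all of them higher in the knockout. Of the 5, 4 are listed with several genes and 1 with none, so they are given without names.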

How the results depend on the processing

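The calls in Ter119- CD71+ cells depended on the fit, and the cause was not tested. Against 441 calls (270 higher, 171 lower), median-centred arrays gave 286 (97 lower), array weights 3151 (1308 higher, 1843 lower), the EYFP covariate 33 (32 higher, 1 lower), the myeloid covariate 23 (22 higher, 1 lower), a minimum log2 size of 1 gave 148 (122 higher, 26 lower), and the 6 arrays alone 112 lower. With those 6 arrays alone 299 genes were called in all, 187 of them higher, and 248 of the 299 were among the 441. The weight of control embryo 15 was 4.55, the highest of all arrays. Leaving out 1 array gave 135 to 1006 calls, 116 to 376 of them higher and 15 to 630 lower. The lowest count came without control embryo 15 and the highest without control embryo 2. With embryo as a replicate block 441 genes were called, the same genes, and 2 differed between populations.

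The 2 genes whose effect differed between populations became 1, Adgrg7 alone, with quantile normalization repeated, median centring, array weights or the myeloid covariate. Leaving out 1 array gave 1 to 3. Prkcq was called there with the EYFP covariate and without knockout embryo 1 or 10.

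Of the 148 genes followed through the settings, 137 were called in the main fit. In every called gene the knockout and control arrays did not overlap, so leaving out 1 array cannot turn its sign. The sign turned in 1 gene, the uncalled Adar, which ran from -0.28 to 0.02 when 1 array was left out. With 3 arrays a group, small changes such as those of replication genes lie near the limit of what can be called.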
